A study of Mus musculus with 3 samples.

Results

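Cluster 10 of the deposited clustering was a group of 1047 neuronal nuclei, out of 31703, in which the mean levels of Klhl1, Cartpt, Inhba and Ndnf were each the highest of all 22 clusters. The nuclei came from the olfactory bulbs of 3 adult male C57Bl/6 mice, and membership was read from the cluster number that the deposited table gives each nucleus; the table names no cell type. All 3 mice had received the same treatment, an injection of rAAVretro-CAG-H2B-GFP (a retrogradely transported adeno-associated virus that drives a nuclear green fluorescent protein from a ubiquitous promoter) into anterior olfactory nucleus and piriform cortex, and there was no uninjected group. GFP-positive, DRAQ5-positive nuclei were sorted, and 1 droplet-based single-nucleus 3' RNA library was made per mouse. The sort was meant for projection neurons. Granule and periglomerular cells, the study states, also made up a substantial part of the isolated nuclei. In tissue sections it saw sparse label in cells that it took for these types. As possible sources it names spread of the virus within the tissue and uptake by young neurons on their way to the bulb. The inhibitory nuclei in these libraries are therefore those the virus reached and not a sample of all bulb interneurons. The study itself named its 22 clusters from marker genes, among them granule, periglomerular and immature-like cells. The deposited cluster numbers carry no such names, so clusters 10 and 12 could not be tied to them. Cluster 10 was set against 6 inhibitory clusters (0, 1, 3, 6, 7 and 8, 18891 nuclei). It was also set against cluster 12, another neuron cluster without a name in the table (807 nuclei), and its maturity was described.

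The adult olfactory bulb keeps receiving new inhibitory neurons. They are born in the subventricular zone, travel along the rostral migratory stream as doublecortin-positive neuroblasts, and settle as granule cells in the deep layers or as periglomerular cells around the glomeruli. As such neurons mature, they exchange several early channel and transporter subunits for late ones: the sodium channel Scn3a for Scn1a, the chloride importer Slc12a2 for the chloride exporter Slc12a5 and the NMDA receptor subunit Grin2b for Grin2a. The transcription factor Sox11 and the polysialyltransferases mark the early phase.

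Cluster 10 held 220 nuclei of mouse 1, 695 of mouse 2 and 132 of mouse 3. These were 3.76% (95% exact binomial interval 3.29 to 4.28), 3.29% (3.06 to 3.54) and 2.78% (2.33 to 3.29) of the nuclei kept from each mouse, a mean of 3.28% ± 0.49 (SD, n = 3); the intervals cover counting error only. The summed unique molecular identifiers (UMIs, 1 per captured transcript) of cluster 10 came to 1307750, 5149345 and 905785, so values of mouse 2 rest on the deepest sum. Between 8 and 39 barcodes were shared by any 2 of the libraries, and none of these was in cluster 10. The median nucleus held 5154, 5908 and 6124 UMIs in the 3 mice, against 7077, 7740 and 9116 for the median inhibitory cluster. Cluster 10 thus had 0.721 ± 0.046 (SD, n = 3) of the UMIs of the inhibitory clusters and was lower in 3 of 3 mice (exact permutation test, two-sided, p = 0.1). Inhibitory cluster 7 had fewer UMIs still, with a median over all its nuclei of 4498, against 5778 in cluster 10. The median number of genes per nucleus was 1886, 2274 and 2108. At an equal depth of 2000 UMIs per nucleus it was 1079, 1146 and 1056 in cluster 10 and 1161, 1155 and 1100 in the inhibitory clusters, which made it lower in 3 of 3 mice, at 0.960 ± 0.031 (SD, n = 3) of the inhibitory value. The mitochondrial share of UMIs was 0.085%, 0.118% and 0.058% in cluster 10 and 0.099%, 0.122% and 0.061% in the inhibitory clusters, again lower in 3 of 3 mice (0.928 ± 0.060 of the inhibitory value). The share of Malat1, a noncoding RNA kept in the nucleus, was 5.73%, 7.57% and 8.62% against 7.07%, 9.16% and 10.6%, lower in 3 of 3 mice (0.816 ± 0.009) and 20th of 22 clusters from the highest. The exact permutation tests, two-sided, gave p = 0.2 for genes at equal depth, p = 0.7 for the mitochondrial share and p = 0.3 for Malat1. The smallest p that 3 against 3 allows is 0.1, so none of these tests could pass, and the part of these measures in the results was not tested.

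The 4 marker genes of the label were checked first, in counts per 1000000 UMIs (CPM) of the nuclei summed per mouse and cluster. Klhl1, a kelch-repeat actin-binding protein of neurons, stood at 1812, 1161 and 1842 CPM in mice 1, 2 and 3. The 18 inhibitory libraries (6 clusters in each of 3 mice) ran from 5.74 to 454 CPM with a median of 28.8, and the 3 libraries of cluster 12 held 150, 77.7 and 65.1. The highest inhibitory value belonged to cluster 1, which averaged 376 CPM and came next to cluster 10 among all 22 clusters. The difference on the log2 scale was 5.48 ± 0.15 (SE) against the mean of the inhibitory clusters and 4.10 ± 0.28 against cluster 12. With the 6 inhibitory clusters summed into 1 library per mouse, which gives the large clusters 0 and 1 more weight, the first value was 3.96.

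Cartpt, the precursor of the CART peptides, was at 183, 110 and 93.8 CPM. The inhibitory libraries did not exceed 3.32 CPM and their median was 1.79, while cluster 12 held 3.36, 6.22 and 10.9 CPM. The difference was 6.00 ± 0.25 against the inhibitory clusters (6.83 without mouse 2) and 4.36 ± 0.48 against cluster 12. Inhba, the subunit that forms activin A, was at 401, 319 and 375 CPM against 1.70 to 51.7 (median 8.95) in the inhibitory libraries and 49.2, 32.8 and 52.7 in cluster 12. Ndnf, a secreted factor that marks neurogliaform cells in the cortex, was at 794, 528 and 733 CPM against 5.13 to 48.7 (median 9.23) and 10.1, 15.7 and 7.75, a difference of 5.94 ± 0.13 and 5.74 ± 0.27 (the latter 6.46 without mouse 2). For these genes, as for Klhl1, every library of cluster 10 lay above every inhibitory and every cluster 12 library. Mouse 2 was the lowest of the 3 for Klhl1, Inhba and Ndnf. The clusters were formed on these same counts, so such differences describe the cluster and do not test that it exists.

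**Figure D1:**
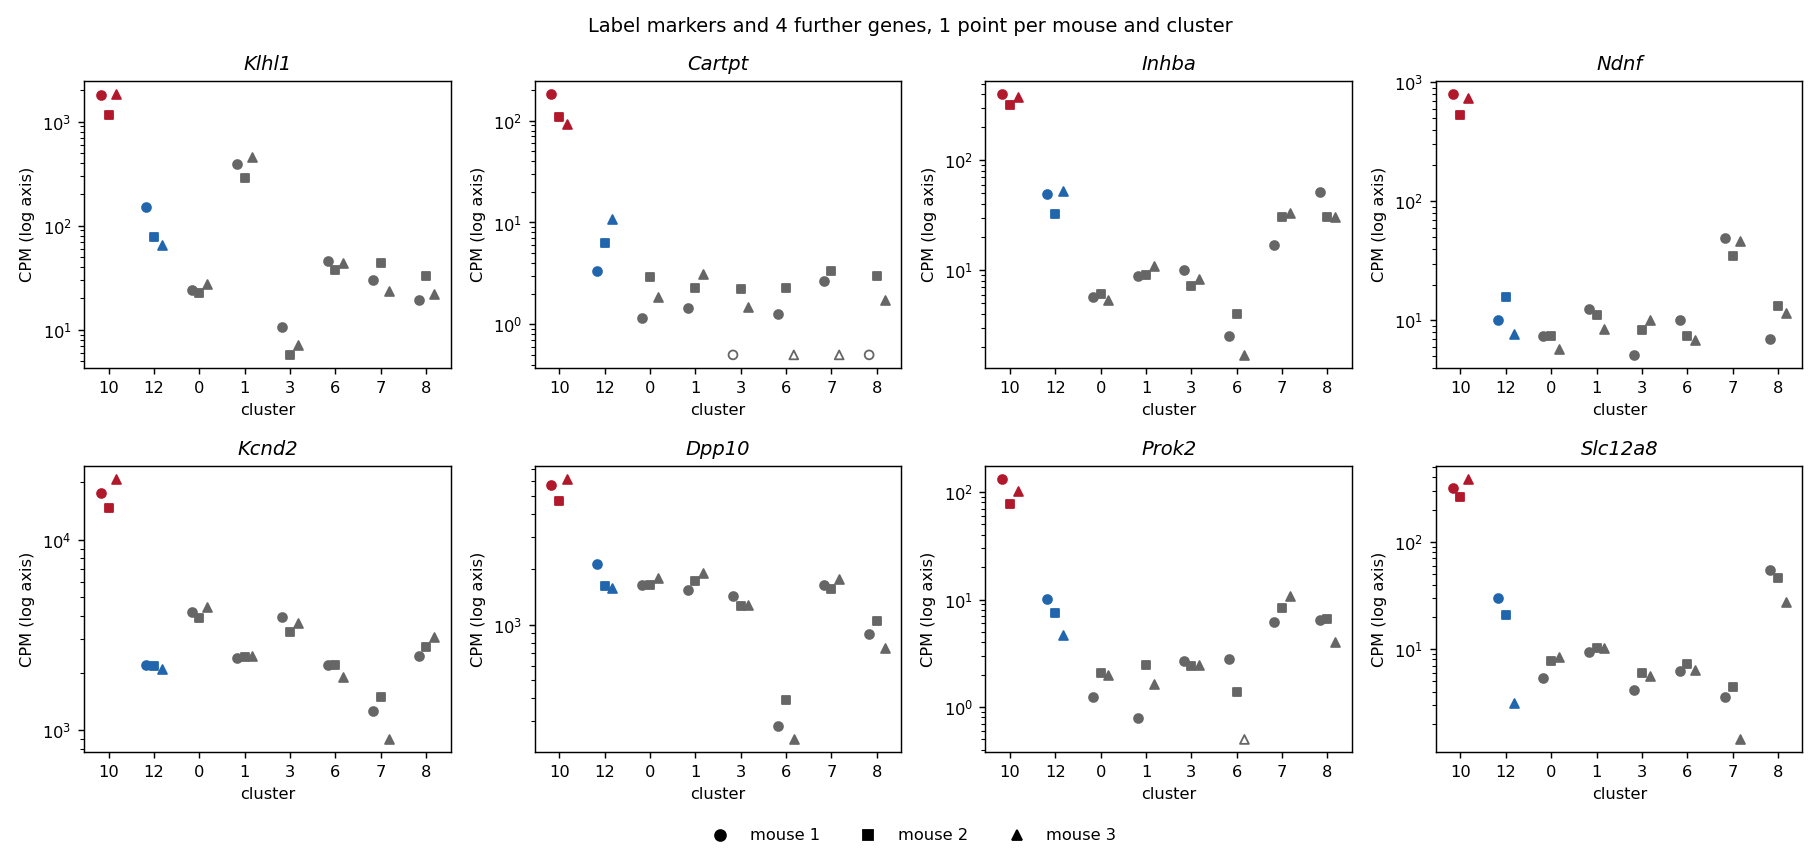
CPM (log axis) of the 4 label markers and of Kcnd2, Dpp10, Prok2 and Slc12a8 in each mouse (symbols) and cluster (horizontal axis), with cluster 10 in red, cluster 12 in blue and the 6 inhibitory clusters in grey; open symbols at the lower edge stand for values under 0.5 CPM. In each of the 8 panels the 3 values of cluster 10 lie above all others, and cluster 1 is the nearest inhibitory cluster for Klhl1.

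The start regions of 5 of the genes that set cluster 10 apart are shown here, from RefSeq promoter windows of GRCm38.p6, because these genes had higher summed levels in cluster 10 than in any inhibitory library. The gene bodies (GRCm38, GENCODE M21) lie at chr14:96102736-96519102 on the minus strand for Klhl1, chr13:99898489-99901091 minus for Cartpt, chr13:16011851-16031621 plus for Inhba, chr6:65671590-65712326 plus for Ndnf, chr6:21215503-21729805 plus for Kcnd2 and chr6:99711299-99726392 minus for Prok2. The stretches printed are chr14:96519103-96519284 minus for Klhl1, chr13:99900777-99900806 minus for Cartpt, chr13:16011601-16011850 plus for Inhba, chr6:21215096-21215345 plus for Kcnd2 and chr6:99726393-99726642 minus for Prok2, each 5′ to 3′ on the gene's strand. Each is upstream of the RefSeq start. For Klhl1 the 68 bases that the annotation places in exons were left out, and for Cartpt, whose 250 bases all lie in annotated exons, only 30 bases around a motif are shown. Capitals mark a match to the cAMP response element TGACGTCA or to the AP-1 site TGACTCA, searched on both strands over the 250 bases before the start.
Klhl1: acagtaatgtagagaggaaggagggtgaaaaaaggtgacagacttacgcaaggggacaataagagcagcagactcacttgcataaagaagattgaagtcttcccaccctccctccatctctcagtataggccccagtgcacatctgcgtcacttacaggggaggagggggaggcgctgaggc
Cartpt: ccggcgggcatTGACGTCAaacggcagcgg
Inhba: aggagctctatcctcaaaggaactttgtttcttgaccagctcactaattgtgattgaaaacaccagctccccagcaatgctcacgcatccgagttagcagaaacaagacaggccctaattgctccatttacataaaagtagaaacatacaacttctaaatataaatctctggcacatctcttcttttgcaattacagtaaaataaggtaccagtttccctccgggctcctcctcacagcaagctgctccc
Kcnd2: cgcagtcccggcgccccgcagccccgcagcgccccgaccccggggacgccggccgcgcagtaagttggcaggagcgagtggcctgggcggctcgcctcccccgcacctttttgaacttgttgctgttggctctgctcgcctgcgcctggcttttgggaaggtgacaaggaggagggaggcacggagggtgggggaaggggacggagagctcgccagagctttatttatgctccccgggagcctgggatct
Prok2: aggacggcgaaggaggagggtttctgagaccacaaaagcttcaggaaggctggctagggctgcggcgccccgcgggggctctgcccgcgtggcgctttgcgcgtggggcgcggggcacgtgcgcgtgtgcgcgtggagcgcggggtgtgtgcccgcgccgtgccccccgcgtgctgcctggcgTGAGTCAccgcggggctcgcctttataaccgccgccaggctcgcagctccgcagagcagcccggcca

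The Cartpt window held 1 cAMP response element, 112 to 105 bases before the start, a motif found in 508 of 32851 promoter windows of the same length (1.55%). The Prok2 window held 1 AP-1 site, on the strand opposite to the gene, against 1466 of 32851 windows (4.46%). The windows of Klhl1, Inhba and Kcnd2 held neither motif and no TAATTA, the core read by many homeodomain factors, which 1590 windows (4.84%) held. The 5 windows therefore shared none of the 3 motifs searched. A match is a description of the letters and was not tested as a binding site.

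Within cluster 10 the markers were not equally widespread. With each nucleus thinned to 2000 UMIs, which left out 3 nuclei, Klhl1 was seen in 84.4% ± 3.1 of nuclei (mean over 3 mice ± SD), Ndnf in 68.1% ± 4.8, Inhba in 47.0% ± 0.9 and Cartpt in 15.9% ± 3.7. Without thinning the shares were 93.2%, 85.8%, 69.3% and 26.2%. As a measure of free RNA, the 281 nuclei left in cluster 16, where the oligodendrocyte genes were highest, gave 3.30%, 1.45%, 0.322% and 0.322% at the same thinned depth; the median nucleus there held 5441 UMIs and in cluster 10 5778. Counted without thinning, 191 nuclei held UMIs of all 4 markers, 530 of 3, 242 of 2, 68 of 1 and 16 of none. The Klhl1 part of the label therefore described most of the nuclei, and the Cartpt part 26.2% of them at full depth.

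The profile of cluster 10 was closest to that of cluster 1. Across 14780 genes, Pearson's r of log2(CPM + 1) averaged 0.927 with cluster 1, 0.912 with cluster 0 and 0.900 with cluster 12, then 0.898 to 0.878 with clusters 8, 3, 7 and 6 and 0.849 with cluster 4, the next of the others. Libraries of cluster 10 from different mice were related by 0.935 to 0.965. These are correlations across genes, which are not independent, and the libraries of mouse 2, with the deepest sums, gave the highest r throughout.

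The comparisons used summed counts per mouse with edgeR's quasi-likelihood test, and the threshold was a Benjamini-Hochberg adjusted p below 0.05 together with a change of more than 1 on the log2 scale. Against the mean of the inhibitory clusters, 1101 of 14780 genes passed it (7.45%), 730 of them higher in cluster 10 (4.94%) and 371 lower (2.51%). Against cluster 12, 1132 passed (7.66%), 565 higher (3.82%) and 567 lower (3.84%). Against single inhibitory clusters the number past the threshold went from 1226 for cluster 1 (8.29%) to 2131 for cluster 6 (14.4%). The highest number belonged to cluster 3 instead without nuclei above 2 times the median UMI number (2319) and without the 190 nuclei described with the sub-clusters (2419). In all, 168 genes were higher than in each of the 6 inhibitory clusters and 16 lower, and 125 and 8 genes were so against cluster 12 as well. Groups whose libraries did not overlap at all were found for 2.44% of genes upward and 1.28% downward against the inhibitory libraries, and for 11.5% and 13.7% against cluster 12. The split between higher and lower depended on a set of 190 nuclei with many UMIs, described with the sub-clusters: without them 827 genes were higher and 727 lower than in the inhibitory clusters. With 1 summed inhibitory library per mouse the split was 597 to 598.

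The genes with the largest differences from the inhibitory clusters included secreted factors and signalling enzymes. Pdgfd, a platelet-derived growth factor ligand, was at 158, 110 and 206 CPM against at most 8.59 CPM in the inhibitory libraries (log2 difference 6.49 ± 0.22), and cluster 12 held 0, 1.07 and 0 CPM. Cluster 18, where the vascular genes were highest, had more of it (353 CPM). Pde3a, a phosphodiesterase that degrades cyclic nucleotides, stood at 587, 408 and 771 CPM. The inhibitory median was 5.75 CPM but cluster 7 averaged 119, and the difference was 6.22 ± 0.17. Plpp4, a lipid phosphate phosphatase, was at 417, 369 and 496 CPM, again with cluster 7 as the highest inhibitory cluster (up to 105 CPM). Adm, the precursor of the vasodilator peptide adrenomedullin, was low in absolute terms at 26.8, 25.1 and 29.8 CPM, but no inhibitory library exceeded 1.14 CPM. Its difference of 5.50 from the inhibitory clusters was 6.65 without mouse 2. Cluster 18 had more of it (59.5 CPM), and cluster 12 held 10.1, 11.6 and 9.30 CPM. The difference of 1.37 from cluster 12 was not past the threshold without mouse 1, mouse 2 or mouse 3.

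The remaining genes of this set were a kinase, a GTPase regulator, a transporter and 1700011I03Rik, annotated as protein-coding. Stk33, a serine/threonine kinase, was at 128, 107 and 194 CPM against at most 8.30 CPM. Arhgap29, a regulator of small GTPases, was at 174, 141 and 174 CPM against at most 31.0. Cluster 18 had more Arhgap29 (368 CPM). Slc12a8, a member of the cation-chloride cotransporter family, was at 316, 262 and 390 CPM against a median of 6.80 and a highest value of 54.1 (cluster 8). It was next highest, among all 22 clusters, in that same cluster 8 at 42.6 CPM. 1700011I03Rik was at 185, 173 and 188 CPM, and the highest inhibitory library, of cluster 1, held 48.3 CPM; its difference was 5.48, and 6.16 without mouse 2 or 4.23 against 1 summed inhibitory library. All libraries of cluster 10 lay above all inhibitory libraries for these genes.

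The genes lower in cluster 10 included a receptor, scaffolds and an adaptor of synapses. Erbb4, the neuregulin receptor of interneurons, was at 240, 449 and 159 CPM against 541 to 5473 (median 1072) in the inhibitory libraries, a log2 difference of -2.15 ± 0.21, while cluster 12 was as low at 281, 319 and 388 CPM. Grip1, a scaffold of AMPA receptors, was at 171, 216 and 38.6 CPM against 258 to 3191 (-2.35 ± 0.27). Apba2, an adaptor that binds the vesicle fusion protein Munc18, was at 1.53, 9.32 and 5.52 CPM against 14.4 to 157, the lowest of all 22 clusters, and Ttc39b, also the lowest of 22, at 8.41, 5.83 and 3.31 CPM against 12.6 to 75.1. Sphkap, an anchor of protein kinase A, was at 34.4, 59.4 and 18.8 CPM against 76.0 to 397, and St6galnac5, a sialyltransferase, at 12.2, 18.6 and 4.42 CPM against 35.6 to 439. Mouse 2 was the highest of the 3 for each of these genes except Ttc39b. Without the 190 nuclei of many UMIs, most of them from mouse 2, the log2 difference was -2.93 for Erbb4, -3.01 for Grip1, -3.49 for Sphkap and -3.16 for St6galnac5. The antisense transcript Gm15723 and the noncoding 4930473D10Rik (at most 3.88 and 6.02 CPM in cluster 10) completed the set of lower genes. The difference for Gm15723 went from -2.77 to -3.72 without those nuclei and to -5.34 without mouse 2, and that for 4930473D10Rik from -2.27 to -3.97 without those nuclei. For Apba2 the difference went from -2.71 to -3.92 without mouse 2.

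Against cluster 12, the glutamate receptor gene Grik1 and the pair of neighbouring noncoding genes Gm45680 and B020031H02Rik were among the most different upward, together with Pdgfd. Gm45680 was at 44.4, 23.7 and 53.0 CPM and B020031H02Rik at 69.6, 41.6 and 54.1, with 0 UMIs in 2 of the 3 cluster 12 libraries for each; cluster 8, however, held more of both (57.5 and 68.4 CPM on average). Downward, cluster 12 had several times the level of cluster 10 for the following genes. Kcnt2, a sodium-activated potassium channel, was at 18.4, 22.7 and 5.52 CPM against 842, 619 and 526 CPM (-5.16 ± 0.32, and -6.21 without the 190 nuclei of many UMIs). Its overlapping noncoding neighbour 4930590L20Rik was at 0, 1.75 and 3.31 CPM against 120, 78.3 and 91.5, and reads of the 2 genes may not be fully told apart. Bmp3, a secreted ligand of the bone morphogenetic protein family, was at 0, 1.55 and 3.31 CPM against 103, 68.6 and 57.4. Il1rapl2, a synaptic adhesion receptor, was at 47.4, 102 and 72.9 CPM against 2370, 2257 and 2915, and Oxtr, the oxytocin receptor, at 0, 1.17 and 0 CPM against 28.0, 23.8 and 12.4. Crispld1 was at 3.06, 0.971 and 0 CPM against 43.6, 20.6 and 77.5. No library of cluster 10 reached cluster 12 for these genes.

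The pore and 3 auxiliary subunits of an A-type potassium channel were higher in cluster 10 than in the inhibitory clusters. Kcnd2 encodes the pore subunit Kv4.2, which carries the fast inactivating potassium current that delays firing, and Dpp6 and Dpp10 and the Kcnip genes encode its auxiliary subunits. Kcnd2 was at 17525, 14617 and 20954 CPM, against 895 to 4463 CPM (median 2454) in the inhibitory libraries and 2192, 2165 and 2090 CPM in cluster 12. The log2 difference was 2.85 ± 0.10 and 3.09 ± 0.17, and cluster 10 was the highest of 22, ahead of cluster 0 at 4174 CPM. In thinned nuclei Kcnd2 was seen in 99.5% of cluster 10, 84.1% of inhibitory, 82.7% of cluster 12 and 21.6% of cluster 16 nuclei. Dpp10 was at 5703, 4679 and 6191 CPM against 239 to 1903 (median 1490) and 2121, 1613 and 1577, with differences of 2.37 ± 0.11 and 1.69 ± 0.17.

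The calcium-binding subunits went both ways. Kcnip2 was at 421, 275 and 487 CPM. Most inhibitory clusters had very little (median 6.32 CPM), but cluster 7 reached 398 CPM and overlapped with cluster 10; cluster 12 held 3.36, 6.01 and 4.65 CPM. The difference was 5.02 ± 0.16 against the inhibitory clusters, or 4.22 against 1 summed library of them. Kcnip1 was lower than in the inhibitory clusters at 90.2, 149 and 58.5 CPM (-1.70 ± 0.23, and -2.89 without the 190 nuclei of many UMIs), and Kcnip4 at 133, 329 and 113 CPM (-1.28 ± 0.24, with -0.97 without mouse 3, which is under the fold threshold, -1.93 without mouse 2 and -1.97 against 1 summed inhibitory library). Kcnip3 was at 39.0, 37.5 and 49.7 CPM, a difference of 1.02 ± 0.18 that fell under the fold threshold at 0.98 with library sizes without scaling factors and at 0.99 without a filter on low counts. Kcnd3, the related pore subunit, was at 171, 203 and 167 CPM (-0.59 ± 0.15) and Dpp6 at 1375, 1762 and 1369 CPM (0.01 ± 0.12). Of the 9 genes of the complex tested, a list drawn up after its values were seen, 4 were higher and 2 lower than in the inhibitory clusters (4.94% and 2.51% of all genes), and 3 were higher and 1 lower than in cluster 12 (3.82% and 3.84%).

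Of 24 tested genes for peptides and their processing, Cartpt, a label marker, was the 1 higher than in the inhibitory clusters and 2 were lower (4.94% and 2.51% of all genes). It was also the 1 higher than in cluster 12, where 4 were lower (3.82% and 3.84% of all genes): Pcsk2, Vgf (-2.26 ± 0.33), Penk (-1.57, not past the threshold without mouse 1 at -1.295) and Crh (-3.11, not past the threshold without mouse 2 at -3.36). Crh and Penk are the precursors of corticotropin-releasing hormone and of enkephalins. The prohormone convertases Pcsk1 and Pcsk2, which cut peptide precursors, were the 2 lower than in the inhibitory clusters: Pcsk2 was at 195, 201 and 138 CPM against 143 to 1038 in the inhibitory libraries (-1.24 ± 0.15, and -1.87 without the 190 nuclei of many UMIs), and Pcsk1 at 5.35, 28.2 and 19.9 CPM (-1.25 ± 0.30, and -2.04 without mouse 2). Against cluster 12, Pcsk2 was at the threshold (-1.01 ± 0.18) and under it with mouse as a term in the model (-0.98), without mouse 3 (-0.84), without a filter on low counts (-0.995) and with nuclei of at least 1500 genes (-0.99), while it was -1.62 without the 190 nuclei. The neuropeptides Npy (36.7, 41.9 and 22.1 CPM), Sst (0.765, 5.24 and 3.31) and Vip (9.94, 19.6 and 1.10) were low and were highest in other clusters, at 3646, 391 and 2347 CPM. Prok2, prokineticin 2, a secreted signal that guides migrating neuroblasts to the bulb, was at 133, 76.9 and 103 CPM. The inhibitory libraries held 0.425 to 10.7 CPM and cluster 12 held 10.1, 7.51 and 4.65, and the difference was 5.15 ± 0.18 and 3.79 ± 0.34. It was seen in 18.7% of thinned cluster 10 nuclei, 0.601% of inhibitory and none of 281 cluster 16 nuclei, which allows a share of up to 1.07%. Its receptor Prokr2 was at 1.53, 1.17 and 2.21 CPM, and the difference of -1.65 ± 0.62 did not pass the test, but did with mouse as a term in the model (-1.64), in DESeq2 (-1.64), without a filter on low counts (-1.68), without mouse 3 (-1.97), without the nuclei above 2 times the median UMI number (-2.01), without the 190 nuclei of many UMIs (-3.36) and against 1 summed inhibitory library (-2.42).

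The receptors and the binding protein of the Inhba product were measured too. Activin A is a dimer of the Inhba product, it signals through Acvr2a or Acvr2b with Acvr1b, and follistatin (Fst) binds it. Acvr1b was at 26.8, 27.6 and 34.2 CPM (0.04 ± 0.13), Acvr2a at 33.6, 40.8 and 68.4 CPM (-0.06 ± 0.18) and Acvr2b at 19.9, 15.9 and 17.7 CPM (0.29 ± 0.15), none past the threshold. Fst was at 1.53, 8.93 and 0 CPM. Of 27 tested genes of activin and TGF-beta signalling, 2 were higher (Inhba, a label marker, and Fstl5) and 2 lower (Fstl4 and Grem1) than in the inhibitory clusters (4.94% and 2.51% of all genes). Fstl5, a follistatin-like protein, was at 401, 288 and 434 CPM but overlapped with cluster 7 (up to 969 CPM). Fstl4, of the same family, was at 16.8, 26.4 and 3.31 CPM, and its difference of -2.002 was -3.56 without the 190 nuclei of many UMIs and -2.86 without mouse 2. Grem1, a BMP antagonist at 0.765, 4.85 and 0 CPM, was under the fold threshold without mouse 1 (-0.94) and without mouse 3 (-0.98), not past the threshold without the nuclei above 2 times the median UMI number (-1.16), -1.78 against 1 summed inhibitory library and -3.75 without mouse 2.

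Cluster 10 had UMIs of all 9 listed genes of inhibitory neurons but less of the GABA-synthesising enzymes than the inhibitory clusters. The summed list came to 1240, 1455 and 944 CPM, against 1300 to 3176 in the inhibitory libraries and 1955 to 2253 in cluster 12, so mice 1 and 3 lay below every inhibitory library, and cluster 10 ranked 11th of 22. Gad1 was at 284, 441 and 229 CPM against 358 to 1478 (median 610) in the inhibitory libraries and 816, 691 and 643 CPM in cluster 12, a difference of -1.05 ± 0.19 and -1.11 ± 0.23. It was under the fold threshold without mouse 1 (-0.91 and -0.94) and without mouse 3 (-0.99 in both comparisons). Gad2 was at 94.1, 174 and 44.2 CPM, below every inhibitory library (178 to 964, -1.68 ± 0.25, and -2.28 without mouse 2), and overlapped with cluster 12 (104, 151 and 132 CPM). Slc32a1, the vesicular GABA transporter, was at 158, 166 and 130 CPM (-0.37 ± 0.15), within the range of the inhibitory libraries. In thinned nuclei Gad1 was seen in 36.2% of cluster 10 (mean of 3 mice) against 24.8% of cluster 16, with 48.8% against 41.6% in mouse 2, a margin over free RNA that was narrow. Slc32a1 was seen in 25.1% against 5.37%. Of the 9 inhibitory genes tested, Gad1 and Gad2 were lower (2.51% of all genes) and none was higher (4.94%). Meis2, a homeobox gene of bulb interneurons, had its highest mean of all clusters in cluster 10, at 4278, 4179 and 4557 CPM. Cluster 12 overlapped with it at 3999, 3842 and 4333 CPM. The difference from the inhibitory clusters was 0.59 ± 0.09 and not past the threshold.

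Markers of excitatory neurons were low. Slc17a7, the vesicular glutamate transporter of projection neurons, was at 36.7, 26.2 and 26.5 CPM, against 386 CPM in cluster 2, and was seen in 5.37% of thinned nuclei against 4.35% in cluster 16. Tbx21, the mitral and tufted cell factor, was at 1.53, 2.91 and 1.10 CPM against 78.0 in cluster 5. Of the 7 projection neuron genes tested, Reln was the 1 higher (4.94% of all genes; 326, 195 and 304 CPM against an inhibitory median of 29.9), and it overlapped with cluster 8, where it reached 378 CPM. Reln and Id2 are also on the list of neurogliaform cells, and Id2, an inhibitor of basic helix-loop-helix factors, was highest of all 22 clusters at 536, 318 and 396 CPM (3.78 ± 0.16). The other tested genes of that list were not past the threshold, and Nkx2-1 was not tested.

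Granule and periglomerular genes gave no single answer. Among 7 tested granule cell genes Tshz1 and Camk4 were higher and Synpr and Etv1 lower than in the inhibitory clusters (4.94% and 2.51% of all genes). Tshz1, a zinc finger factor of granule cells, was highest of 22 at 973, 860 and 806 CPM against 35.2 to 680 (1.71 ± 0.17). Camk4 was at 183, 175 and 257 CPM (1.23 ± 0.17), with cluster 1 above it at 399 CPM, and was under the threshold without mouse 3 (0.97) and against 1 summed inhibitory library (0.41). Synpr, synaptoporin, was at 260, 543 and 221 CPM against 490 to 1348 (-1.46 ± 0.20) and against 1461, 1786 and 1650 in cluster 12 (-2.19 ± 0.24). Among 8 periglomerular genes none was higher (4.94% of all genes), and Pax6 and Th were lower (2.51%). Pax6, needed for dopaminergic periglomerular cells, was at 27.5, 37.5 and 5.52 CPM against 401, 272 and 291 in cluster 12 (-3.51 ± 0.35); against the inhibitory clusters (-1.24 ± 0.29) it was not past the threshold without mouse 1 or without mouse 3 (-1.24 and -0.97), and it was -2.32 without the 190 nuclei of many UMIs. Th, tyrosine hydroxylase, was at 7.65, 18.6 and 6.62 CPM (-1.15 ± 0.33), not past the threshold without mouse 1 (-0.92), and at -1.87 without mouse 2 and -1.85 against 1 summed inhibitory library. Against cluster 12, Th (-1.41) was not past the threshold without mouse 1 (-1.39) or mouse 3 (-1.17), and was -2.18 without mouse 2. Calb2 was at 99.4, 128 and 75.1 CPM and Calb1 at 4.59, 1.75 and 0 CPM.

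Of 6 astrocyte genes 2 were higher (4.94% of all genes), Slc1a3 (80.3, 82.1 and 103 CPM) and Slc1a2 (66.5, 63.9 and 76.2 CPM), both glutamate transporters. The summed astrocyte list came to 175, 164 and 192 CPM in cluster 10, against 21.7 to 785 CPM in the inhibitory libraries and 4924 CPM in cluster 9. Slc1a2 was under the fold threshold without mouse 3 (0.99) and Slc1a3 against 1 summed inhibitory library (0.77). Of 4 vascular genes tested 2 were higher (again against 4.94%), Rgs5 at 7.65, 3.88 and 7.73 CPM and Cldn5 at 6.88, 2.33 and 5.52 CPM; the summed list was 31.4, 18.1 and 23.2 CPM against 8.87 to 21.3 in the inhibitory libraries and 2545 in cluster 18. Cldn5 (1.60) was not past the threshold without mouse 1 (1.16) or without mouse 3 (1.32), and was 2.55 without mouse 2. The part of free RNA or of other cells in these low values was not tested. None of the tested genes was higher than in the inhibitory clusters on 5 further lists, where 4.94% of all genes were. These were the oligodendrocyte (5 tested), microglia (2), ensheathing glia (6), external plexiform layer interneuron (6) and striatal (7) lists. With so few genes tested, a count of 0 is near that share. Of 6 tested genes of the deep short-axon cell list 1 was higher (4.94% of all genes), Pthlh, at 6.12, 1.17 and 5.52 CPM. Its difference of 2.30 was not past the threshold without mouse 1 (2.19) or mouse 3 (1.93). Nor was it with nuclei of at least 1500 genes (2.12), and it was 3.50 without mouse 2.

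Of 34 tested transcription factors of bulb interneurons, 9 were higher and 4 lower than in the inhibitory clusters (4.94% and 2.51% of all genes), and 8 were higher and 4 lower than in cluster 12 (3.82% and 3.84%). Tox, an HMG-box factor, was at 482, 392 and 495 CPM against 14.2 to 186 (3.31 ± 0.16, or 2.59 against 1 summed inhibitory library) and 222, 136 and 167 in cluster 12. Zic1, a zinc finger factor of bulb interneurons, was at 210, 135 and 179 CPM, and cluster 7 was above cluster 10 for it (311 CPM), while cluster 12 held at most 8.15 CPM. Nfib was at 668, 408 and 604 CPM (2.34 ± 0.16) and Zeb2 at 2654, 2096 and 2740 CPM (1.41 ± 0.11), again with cluster 7 as the highest inhibitory cluster. Sp9, needed for the production of many bulb interneurons, was at 161, 118 and 94.9 CPM (1.18 ± 0.15, but 0.98 without mouse 1 and against 1 summed inhibitory library), and its relative Sp8 at 86.4, 86.6 and 97.2 CPM (0.14 ± 0.15). Lower than in the inhibitory clusters were Etv1 (53.5, 76.7 and 25.4 CPM, -2.02 ± 0.25, and -2.77 without the 190 nuclei of many UMIs), Pax6, Rorb, which was not past the threshold without mouse 1 (-1.48), and Sall3 (-1.43, and -2.40 without the 190 nuclei). Lower than in cluster 12 were Nr2f1 (6.12, 19.6 and 1.10 CPM against 226, 139 and 229), Nr2f2 (3.06, 5.44 and 0 against 63.8, 35.2 and 41.9), Foxp2 (-2.07, with -3.35 without mouse 2 and no call without mouse 1, at -1.68) and Pax6.

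The receptors for glutamate differed subunit by subunit. Of 24 tested, 4 were higher and 6 lower than in the inhibitory clusters (4.94% and 2.51% of all genes), and 4 higher and 9 lower than in cluster 12 (3.82% and 3.84%); Grik1, Grid1 and Grm5 were among those higher in both. Grik1, the GluK1 kainate receptor, was at 1932, 962 and 1801 CPM against 6.89 to 188 CPM (5.32 ± 0.13) and against 10.1, 6.86 and 9.30 CPM in cluster 12. Grid1, an orphan receptor of the delta family, was at 755, 577 and 777 CPM (2.49 ± 0.11) and highest of 22 clusters. Grm5, a metabotropic receptor, was at 2544, 2427 and 2936 CPM (1.35 ± 0.15). Among the lower genes, Gria3 was at 169, 344 and 121 CPM (-1.25 ± 0.35), a difference not past the threshold without mouse 1 (-1.23) or mouse 3 (-1.01), at -1.97 against 1 summed inhibitory library and at -2.75 without the 190 nuclei of many UMIs. Grik2 was at 565, 598 and 368 CPM (-1.02 ± 0.15), under the fold threshold without mouse 3 (-0.81) and with nuclei of at least 1500 genes (-0.997), and Grm7 at 222, 266 and 193 CPM (-1.31 ± 0.12), the last being the lowest of 22 clusters. Grm3 was at 5.35, 14.2 and 3.31 CPM (-2.15 ± 0.28, and -3.32 without mouse 2) and Grm2 at 9.94, 12.4 and 7.73 CPM. The obligatory NMDA subunit Grin1 was at 421, 439 and 457 CPM (0.23 ± 0.10).

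Of 14 GABA receptor genes tested, Gabbr2 and Gabrg1 were higher and 4, among them Gabra3, Gabra4 and Gabrb2, lower than in the inhibitory clusters (4.94% and 2.51% of all genes); Gabra3 was under the fold threshold without mouse 1 (-0.88). Gabbr2, a subunit of the metabotropic GABA-B receptor, was highest of 22 clusters at 344, 271 and 412 CPM against 8.80 to 205 (2.57 ± 0.15) and against 33.6, 35.0 and 55.8 in cluster 12. Gabrb2 was the lowest of 22 at 22.9, 45.4 and 4.42 CPM (-2.24 ± 0.27, with -3.27 without mouse 2 and -3.10 without the 190 nuclei of many UMIs), and Gabra4 was below every inhibitory library at 10.7, 35.7 and 24.3 CPM (-1.62, with -2.28 without mouse 2 and -2.41 without the 190 nuclei). Against cluster 12, 3 GABA receptor genes were higher and 5 lower (3.82% and 3.84% of all genes). Among 13 voltage-gated calcium channel genes 3 were higher and 1 lower than in the inhibitory clusters (4.94% and 2.51% of all genes). Cacna1e (958, 709 and 987 CPM, 1.65 ± 0.15), the low-threshold channel Cacna1g (60.4, 66.2 and 107 CPM) and Cacna2d1 (2250, 1899 and 2265 CPM, 1.12 ± 0.14) were higher, and Cacnb2 (63.5, 99.6 and 29.8 CPM, -2.27 ± 0.24, with -2.88 without mouse 2 and -3.22 without the 190 nuclei) was lower. Cacna2d1 was just under the fold threshold without mouse 1 (0.996) and at 0.81 against 1 summed inhibitory library. Cacnb2 was also lower than in cluster 12 (-1.03 ± 0.28), but not with mouse as a term in the model (-0.89), with nuclei of at least 1500 genes (-0.998) or without mouse 1 (-0.87) or mouse 3 (-0.604), and it was -1.77 without mouse 2 and -1.95 without the 190 nuclei.

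The netrin receptor Dcc, which steers growing axons and migrating neurons, was highest of all clusters. It was at 4323, 3655 and 4671 CPM against 144 to 2382 (median 282) in the inhibitory libraries, where cluster 6 was highest, and 779, 674 and 1006 CPM in cluster 12, a difference of 3.11 ± 0.16 and 2.42 ± 0.27. The netrin relative Ntng2 was at 33.6, 26.6 and 37.5 CPM against at most 5.04 CPM (3.86 ± 0.29). Unc5c, a repulsive netrin receptor, was at 140, 147 and 148 CPM (2.14 ± 0.26, but 0.84 against 1 summed inhibitory library) and Unc5d at 190, 133 and 190 CPM (1.97 ± 0.18), both overlapping with cluster 8. Dscam, a further receptor of this group, was lower at 135, 318 and 99.4 CPM (-2.01 ± 0.28, and -4.06 without the 190 nuclei of many UMIs; -2.73 and -4.75 against cluster 12). Of 10 genes tested on this list, drawn up after its values were seen, 4 were higher and 1 lower than in the inhibitory clusters (4.94% and 2.51% of all genes), and likewise than in cluster 12 (3.82% and 3.84%). Of 19 tested activity-induced genes none was higher (4.94% of all genes), and Nptx2 was the 1 lower (2.51% of all genes; 1.53, 3.88 and 6.62 CPM, -1.11 ± 0.32), a difference that was not past the threshold without mouse 1 (-0.86), without mouse 2 (-1.01) or without the nuclei above 2 times the median UMI number (-0.99).

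The maturity of cluster 10 was read from a list of early and a list of late genes, and most members of both did not pass the threshold. Of 19 tested genes of immature neurons, 2 were higher (Sox11 and St8sia4) and 1 lower (Ccnd2) than in the inhibitory clusters, where 4.94% and 2.51% of all genes were. The list median was -0.45 on the log2 scale, against -0.02 over all genes tested. Against cluster 12, 2 were higher (the same 2) and 2 lower (Ccnd2 and Dcx), where 3.82% and 3.84% of all genes were. The list median there was 0.33 against -0.01. Of 20 tested genes of mature neurons, none was higher in either comparison and 5 were lower in each, against 2.51% and 3.84% of all genes lower, with medians of -0.48 and -0.48. Cplx1, Grin2a, Scn1a and Slc12a5 were lower in both, and Nefl was among the 5 in the second (-1.17) but not past the threshold without mouse 1 (-1.19), mouse 2 (-1.53) or mouse 3 (-0.96); whether these genes differ between the comparisons was not tested.

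Sox11, a transcription factor of newborn neurons, was highest of 22 clusters at 126, 114 and 90.5 CPM. The inhibitory libraries held 20.8 to 113 (median 30.7), with cluster 1 the highest and overlapping, and cluster 12 held 58.2, 54.3 and 57.4 CPM. The difference was 1.57 ± 0.11 and 1.02 ± 0.17, the latter under the fold threshold without mouse 1 (0.94), without mouse 2 (0.98) and with library sizes without scaling factors (0.98). It was seen in 18.3% of thinned cluster 10 nuclei, 7.38% of inhibitory, 9.02% of cluster 12 and 0.161% of cluster 16 nuclei. St8sia4, which adds polysialic acid to the neural cell adhesion molecule, was at 213, 175 and 151 CPM against 39.1 to 213 (median 56.8, highest in cluster 6) and 40.3, 51.5 and 55.8 in cluster 12, a difference of 1.32 ± 0.13 and 1.90 ± 0.20. Dcx, doublecortin, went the other way. It was at 185, 269 and 178 CPM against 105 to 529 (median 376) in the inhibitory libraries, a difference of -0.66 ± 0.17 that was not past the fold threshold, and against 546, 647 and 490 CPM in cluster 12 (-1.36 ± 0.21). Dcx was seen in 25.1% of thinned cluster 10 nuclei, 44.0% of inhibitory and 54.6% of cluster 12 nuclei, with 11.4% in cluster 16.

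The other early genes named here did not pass the threshold, except Ccnd2. St8sia2, the other polysialyltransferase of the list, was among those that did not pass it in either comparison. Sox4 was at 140, 117 and 94.9 CPM (-0.12 ± 0.18), Stmn1 at 183, 214 and 94.9 CPM (0.29 ± 0.28) and Igfbpl1 at 18.4, 15.3 and 8.83 CPM (-0.45 ± 0.30). Stmn2 was at 42.8, 54.4 and 23.2 CPM (-0.87 ± 0.22) and Gap43 at 26.8, 35.0 and 16.6 CPM (-0.79 ± 0.23), and both were past the threshold without mouse 2 (-1.21 for each). Ccnd2, a cyclin of dividing neuronal precursors, was at 6.88, 7.38 and 9.94 CPM against 2.55 to 55.8 in the inhibitory libraries (-1.24 ± 0.31), and was not past the threshold without mouse 1 (-1.21) or mouse 2 (-1.10). Against cluster 12 (29.1, 45.7 and 23.3 CPM, -2.18 ± 0.37) it was not past it without mouse 2 (-1.62). Tubb3 was at 0 UMIs in all 22 clusters and gave no value. Genes of dividing cells were low: of 6 tested genes of cycling cells and progenitors none was higher than in the inhibitory clusters (4.94% of all genes) and Egfr was the 1 lower (2.51% of all genes; 3.82, 3.30 and 0 CPM, -1.92, or -5.67 without the 190 nuclei of many UMIs), and the 13 listed genes summed to 29.1, 25.6 and 27.6 CPM against 388 CPM in cluster 18, the highest. The other 7 genes of that list were too low to test.

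Among the late genes, Grin2a was at 173, 270 and 115 CPM against 82.6 to 1129 (median 646) in the inhibitory libraries and 1119, 1257 and 1248 CPM in cluster 12. The difference was -1.37 ± 0.20 and -2.62 ± 0.24. Scn1a was below every library of both references at 58.9, 87.0 and 56.3 CPM, against 98.8 to 350 (median 188) and 126, 152 and 183, a difference of -1.40 ± 0.14 and -1.09 ± 0.18. Slc12a5, which lowers chloride in mature neurons, was likewise below all of them at 52.8, 68.4 and 16.6 CPM, against 71.6 to 176 (median 132) and 126, 117 and 153, a difference of -1.32 ± 0.20 and -1.34 ± 0.25. Without mouse 3 the differences from cluster 12 were under the fold threshold for Scn1a (-0.87) and Slc12a5 (-0.92). In thinned nuclei Slc12a5 was seen in 7.34% of cluster 10, near the 6.58% of cluster 16, and in 22.2% of inhibitory nuclei. Scn1a was seen in 10.9% against 6.15% and 27.4%. Cplx1, complexin 1, was at 42.8, 71.3 and 18.8 CPM (-1.01 ± 0.28 against the inhibitory clusters), a difference that was under the fold threshold with mouse as a term in the model (-0.998), without mouse 1 (-0.80) and without mouse 3 (-0.90). Against cluster 12, Cplx1 (-1.26) was not past the threshold without mouse 1 (-1.08).

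General genes of mature neurons did not pass the threshold. Map2, the dendritic microtubule protein, was at 1238, 1163 and 1209 CPM, above all inhibitory libraries (532 to 1155). The difference from the mean of the inhibitory clusters was 0.50 ± 0.08. Rbfox3, whose product is the neuronal antigen NeuN, was at 321, 329 and 262 CPM (0.15 ± 0.15), the fifth highest of 22 clusters. Syt1, the calcium sensor of vesicle release, was at 2640, 2905 and 2958 CPM (0.19 ± 0.11) and Snap25 at 1149, 1387 and 1213 CPM (-0.34 ± 0.10).

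**Figure D2:**
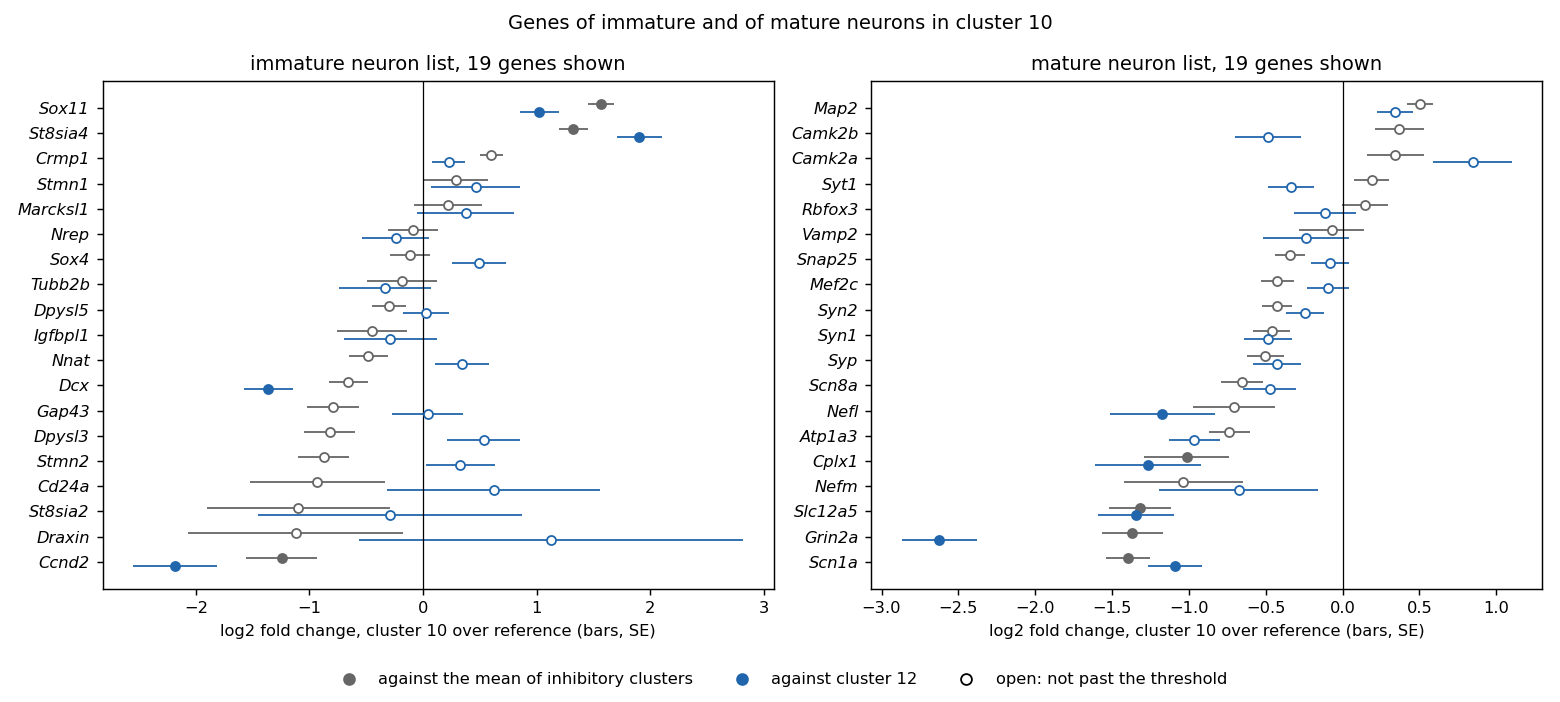
Log2 fold change of cluster 10 (bars, SE) for 19 tested genes of immature neurons, left, and 19 of the 20 tested genes of mature neurons, right, against the mean of the inhibitory clusters (grey) and cluster 12 (blue); filled points are past the threshold. Sox11 and St8sia4 stand at the upper end of the left panel, and all filled points of the right panel lie below 0.

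The early and late partners of each pair were set against each other as the ratio of their UMIs, which cancels the depth of a library and was compared between libraries, not between pairs. Scn3a over Scn1a was 7.13, 4.12 and 7.06 in cluster 10. It was 0.316 to 2.55 in the inhibitory libraries, highest in cluster 1, and 3.81, 2.44 and 1.92 in cluster 12, so cluster 10 lay above all of them. Scn3a itself was at 420, 358 and 397 CPM, above all inhibitory libraries (47.2 to 309, 1.43 ± 0.12) and level with cluster 12 (481, 370 and 350 CPM, 0.01 ± 0.17), and it was the only one of 8 tested sodium channel genes that was higher than in the inhibitory clusters (4.94% of all genes). Scn1a and Scn9a (2.29, 4.27 and 2.21 CPM, -1.58 ± 0.33) were lower (2.51%), and that list was drawn up after its values were seen. Slc12a2 over Slc12a5 was 1.25, 1.09 and 5.00, against 0.185 to 1.22 and 0.469, 0.569 and 0.495. The value of mouse 3 rests on 15 UMIs of Slc12a5, and mouse 2 overlapped with cluster 1. Slc12a2 by itself did not differ past the threshold (65.8, 74.6 and 82.8 CPM, 0.09 ± 0.16), while Slc12a5 was lower. Grin2b over Grin2a was 7.31, 4.51 and 8.93, within the inhibitory range of 1.29 to 8.97, where cluster 6 was highest, and above cluster 12 at 1.08, 0.857 and 0.927.

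**Figure D3:**
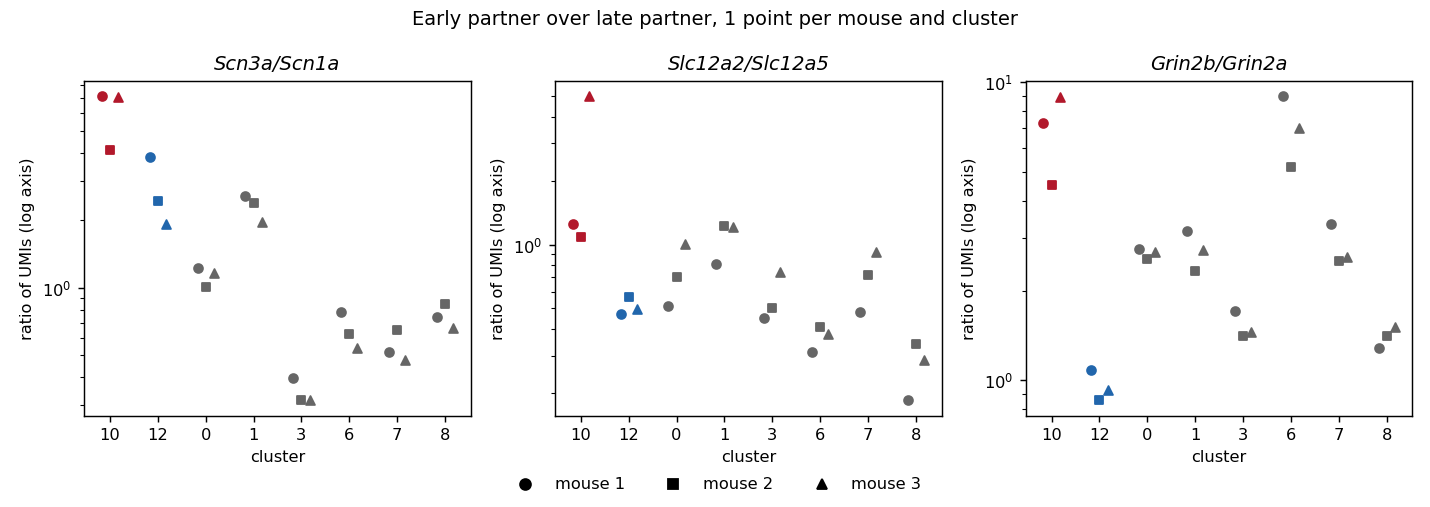
Ratio of UMIs of the early over the late partner (log axis) in each mouse (symbols) and cluster (horizontal axis), with cluster 10 in red, cluster 12 in blue and the inhibitory clusters in grey. Scn3a/Scn1a of cluster 10 lies above all other libraries, while Grin2b/Grin2a overlaps with the inhibitory clusters.

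Cluster 10 was itself divided by clustering its nuclei again, which gave 6 sub-clusters, A to F; the genes that lead a sub-cluster defined it, so their values are a description without a test. At a finer resolution the nuclei again fell into 6 groups (adjusted Rand index 0.923) and at a still finer one into 9 (0.730). Sub-cluster A (346 nuclei, 35.5%, 32.7% and 31.1% of the cluster in mice 1, 2 and 3) was led by Cartpt and Nell1. It held Cartpt at 443, 285 and 237 CPM, against a mean of 60.1 over the others, and Cartpt was seen in 46.8% of its nuclei. Sub-cluster B (289 nuclei, 32.7%, 23.0% and 43.2%) was led by Grik1 (5650, 4283 and 4552 CPM against 320) and Kirrel3, a synaptic adhesion protein, and had the most Klhl1 (2366 CPM), Ndnf (922 CPM) and Zic1 (474 CPM). Cartpt there was 33.0 CPM. Cartpt and Grik1, both among the genes that set cluster 10 apart, thus had their highest levels in different sub-clusters.

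Sub-cluster D (126 nuclei, 14.1%, 11.4% and 12.1%) had the noncoding 4930509J09Rik among its leading genes. It had the most Inhba (803 CPM), Sox11 (209 CPM) and Kcnd2 (22208 CPM) and the least Dcx (90.1 CPM) and Slc12a5 (20.5 CPM). Sub-cluster E (59 nuclei, 5.00%, 5.47% and 7.58%) was led by Cpa6, a carboxypeptidase, and Ptprt, and had less of all 4 label markers than any other sub-cluster. Klhl1 was at 310 CPM and in 49.2% of its nuclei, Cartpt at 11.5 CPM and Inhba at 60.3 CPM, and Cpa6 and Etl4 were otherwise highest in cluster 0, the cluster its profile was closest to (r = 0.911). Sub-cluster F (37 nuclei, of which 4 from mouse 3) was led by Kcnmb2 and Grip1, both otherwise highest in cluster 7. Sox11 and Dcx did not run together across the sub-clusters, since D had the most of one and the least of the other.

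Sub-cluster C (190 nuclei) differed from the rest in depth and in its spread over mice. It held 16 nuclei of mouse 1, 170 of mouse 2 and 4 of mouse 3, which is 7.27%, 24.5% and 3.03% of the cluster. The median nucleus had 11746 UMIs, against 5071 to 7262 in the other sub-clusters. Its leading genes, Dscam, Hs6st3, Kcnq5, Thsd7b, Sema3e and Ano3, were all higher in some other cluster of the 22, and its profile was closest to cluster 1 (r = 0.968) and cluster 0 (r = 0.963). Klhl1 was at 720 CPM, below the level of sub-clusters A, B, D and F, Gad1 (600 CPM) and Slc12a5 (87.6 CPM) were the highest of the 6, and Dcx (379 CPM) was next to sub-cluster E (385 CPM). Whether these droplets held more than 1 nucleus was not tested.

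**Figure D4:**
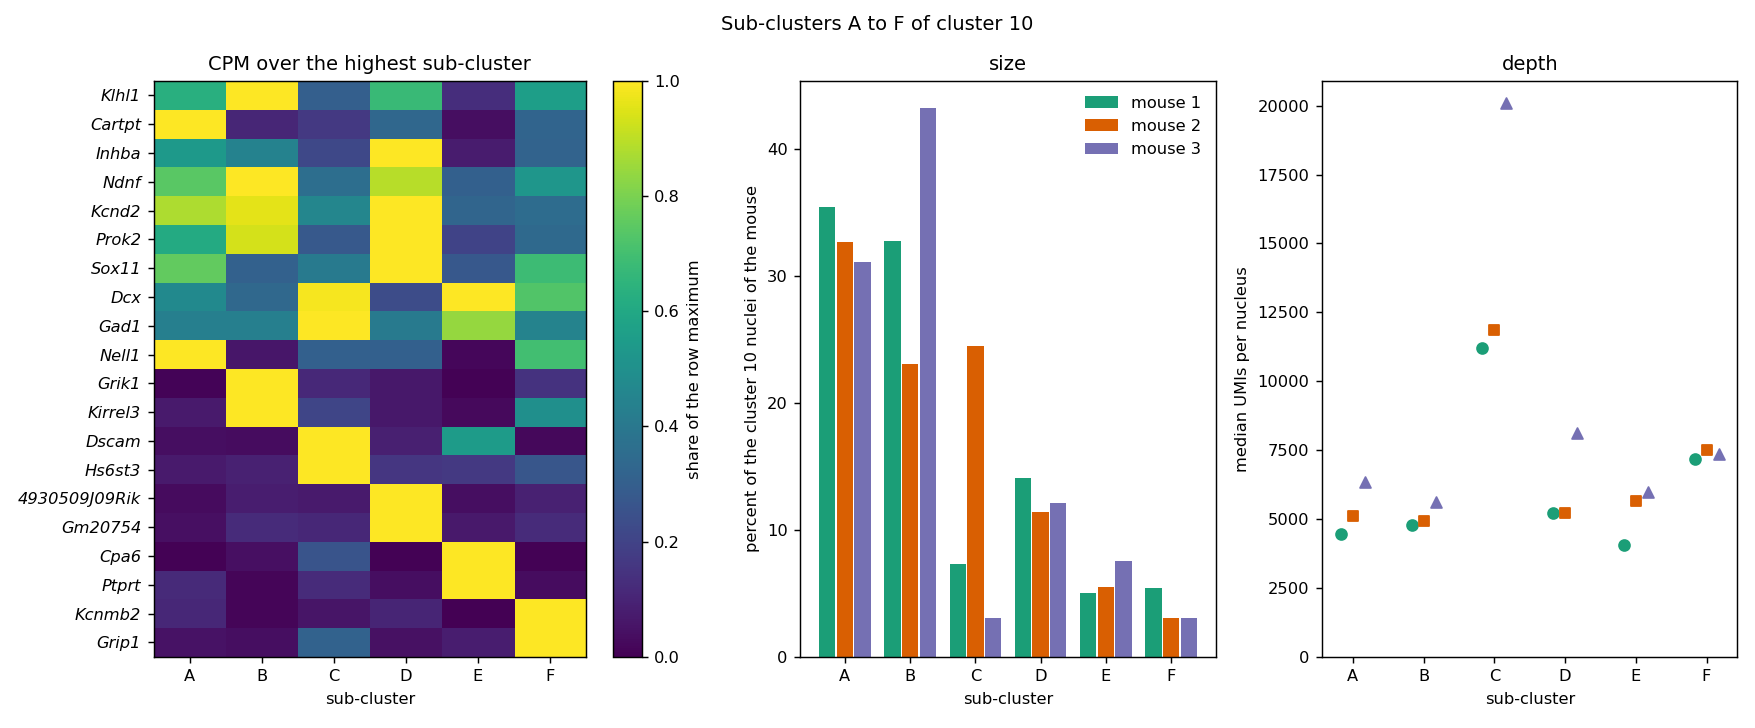
Left, mean CPM of selected genes in sub-clusters A to F as a share of the highest sub-cluster; middle, percent of the cluster 10 nuclei of each mouse (bars) that fell in each sub-cluster; right, median UMIs per nucleus by mouse. Sub-cluster C stands apart with 24.5% of the nuclei of mouse 2 and a median of 11746 UMIs per nucleus.

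The results were therefore given again without the 190 nuclei of sub-cluster C, an alternative chosen after seeing the data. Klhl1 was then at 1967, 1512 and 1977 CPM, Cartpt at 205, 156 and 94.2 CPM and Kcnd2 at 18547, 18227 and 21801 CPM. The early and late genes moved further from the inhibitory clusters: Dcx was at 164, 178 and 158 CPM and past the threshold (-1.03), Slc12a5 at 45.4, 52.8 and 13.3 CPM (-1.67), Scn1a at 55.3, 61.1 and 32.6 CPM (-1.87), Grin2a at 79.8, 117 and 60.4 CPM (-2.50) and Gad1 at 238, 314 and 190 CPM (-1.45). Sox11 was at 136, 133 and 97.8 CPM (1.69) and Scn3a at 428, 409 and 409 CPM (1.49). Of the immature genes, 2 were then higher and 3 lower (Ccnd2, Dcx and Dpysl3), and of the mature genes 7 were lower and none higher, where 5.63% of all genes were higher and 4.95% lower in the same fit. Against cluster 12 these counts were 2 higher and 2 lower, and 6 lower and none higher (4.41% and 4.83% of all genes). Ccnd2, an immature gene, was lower than in the inhibitory clusters both with these nuclei (-1.24) and without them (-1.26). The median of the immature list was -0.45 with them and -0.53 without them. With and without these nuclei, cluster 10 had more Sox11, St8sia4 and Scn3a, and less Scn1a, Slc12a5 and Grin2a, than the mean of the inhibitory clusters. This did not hold against each cluster. With these nuclei kept, Sox11 overlapped with cluster 1 and St8sia4 with cluster 6, and Grin2a was lower in cluster 6 than in cluster 10.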

How the data were processed

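The authors aligned and counted the reads with Cell Ranger on mm10 (GRCm38), kept nuclei above a floor on genes and under a ceiling on mitochondrial reads, merged the 3 libraries by canonical correlation and clustered them. They deposited raw UMI counts per gene and nucleus for each mouse, and a table with a cluster number per nucleus; 7 numeric columns of that table were not used. The mitochondrial percent of each nucleus was taken from that deposited table. Their sort gate excluded aggregates, and no doublets were removed here.

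Counts were summed per mouse and cluster (24 libraries, 645037 to 44969722 UMIs) and tested with edgeR 4.0.16 (R 4.3.3; TMM, quasi-likelihood, Benjamini-Hochberg over 14780 genes); DESeq2 1.42.0 was an alternative. Sub-clusters came from scanpy 1.11.5 (2000 variable genes, 15 components, Leiden resolution 0.3, with 0.5 and 0.8 as checks). The fit was tested on simulated data. Genes named are the label markers, the 12 with the largest and 8 with the smallest difference from the inhibitory mean and 6 and 6 from cluster 12, with no overlap and at least 20 CPM, up to 4 from each list, and all immature and mature genes; further genes were chosen after their values were seen. The nuclei, gene lists and tests were chosen with earlier results of these data known, and the lists of potassium channel, prokineticin, sodium channel and netrin genes after seeing these values. The 3 mice are separate animals, so the clusters of 1 mouse are paired: libraries of 1 mouse deviated together from their cluster means (mean r = 0.145 over 84 pairs, against -0.071 over 168 pairs of different mice). Values with mouse as a term are given where they change a call. Promoter sequences are from RefSeq (GRCm38.p6) and positions from GENCODE M21 (77 of 77 genes matched). Intervals are Clopper-Pearson and cover counting error only. Values of some genes are not reported here.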

Additional observations from a re-analysis of the deposited data

How the results depend on the processing

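Under the alternatives there were 1802 values for 171 combinations of a gene and a comparison. Of these, 80 kept the direction but were no longer past the threshold, 0 changed sign, and 1722 did neither. This tally has no class for a call gained under an alternative. Such gains are given above for Prokr2, Gap43, Stmn2 and Dcx. With mouse as a replicate block, 1135 genes were past the threshold against the inhibitory clusters and 1212 against cluster 12, and among the genes named only Cplx1 (inhibitory clusters) and Pcsk2 and Cacnb2 (cluster 12) lost the call. Leaving out 1 mouse at a time gave 895 to 1130 genes against the inhibitory clusters and 800 to 993 against cluster 12. The immature genes past the threshold against cluster 12 numbered 2 to 4 with 1 mouse left out (2 without mouse 2) and the mature genes 2 to 5 (3 without mouse 1 and 2 without mouse 3). Without sub-cluster C the immature genes past the threshold against the inhibitory clusters numbered 5. DESeq2 gave 1173 and 1187 genes, no filter on low counts 1251 and 1135, library sizes without scaling factors 1120 and 1129, nuclei with at least 1500 genes 1069 and 1119, and leaving out nuclei above 2 times the median UMI number 1338 and 1257. The share of nuclei ranged from 3.04% to 3.53% and the UMI ratio from 0.700 to 0.746 with 1 mouse left out. The shares of nuclei with a marker UMI depend on depth, as given with and without thinning; at 4000 UMIs, which left out 205 of the 1047 nuclei, they were 91.7% for Klhl1, 81.8% for Ndnf, 59.4% for Inhba and 21.99% for Cartpt. A gene at 1 or 2 UMIs in mouse 3, the shallowest library of cluster 10, has no precise level there.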
